A study of Rattus norvegicus with 9 samples.

Results

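Microglia are the resident macrophages of the brain, and the 10 genes described here, P2ry12, Cx3cr1, Csf1r, C1qa, C1qb, C1qc, Tyrobp, Fcer1g, Aif1 and Ctss, are used to mark them. The members were taken as every probe set that the platform annotation gives to 1 of these symbols alone, which yielded 12 of the 31099 probe sets in the table and 10 of the 14218 genes it names singly. Of the 12, 11 passed the filter on low signals and were tested, covering all 10 genes. Total RNA from rat hippocampus was measured on 9 arrays in 3 groups of 3: ketone bodies for 6 h, ketone bodies for 1 h, and a control kept in artificial cerebrospinal fluid alone. The labels name hippocampal neurons as the source, and give no strain, age, culture type, ketone body or dose, no exposure time for the control, and nothing on whether replicates came from different rats or cultures. Each p therefore covers only the spread among these arrays.

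In resting microglia, the purine receptor P2ry12, the fractalkine receptor Cx3cr1 and the colony-stimulating factor receptor Csf1r let the cell sense nucleotides, neurons and survival factors, and they are called homeostatic markers. The chains C1qa, C1qb and C1qc assemble into C1q, which starts the classical complement cascade and in brain is made mainly by microglia. Tyrobp and Fcer1g are membrane adaptors that pass on signals from activating immune receptors, Aif1 (Iba1) is a cytoskeletal protein that is widely stained to find microglia, and Ctss is a lysosomal protease. P2ry12 is known to decline when microglia become activated, while Aif1, Tyrobp and C1q tend to increase. In bulk RNA, fewer cells of a type and less RNA per cell cannot be told apart.

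The label of a neuronal source was set against cell type markers. All 10 neuronal markers passed the filter. So did 8 of 8 astrocyte markers on the array, 7 of 7 oligodendrocyte markers, 7 of 7 endothelial markers and 13 of 14 microglial markers. The filter takes the mean over all 9 arrays and left 18625 of the 31099 probe sets, so it is not a detection call by group. Summed signals of the astrocyte markers were 20542 to 21578 at 6 h, 20522 to 23011 at 1 h and 19640 to 20703 in control. Those of the endothelial markers were 1312 to 1418, 1337 to 1494 and 1255 to 1338. Glial and vessel marker signal was thus seen in every group. Array correlations were 0.949 to 0.987 within groups and 0.945 to 0.988 between groups. The beta-actin control ratio (log2 of the 3' over the 5' probe set), which is higher where RNA is more degraded, ran from 1.02 to 2.55 at 6 h, from 1.38 to 2.13 at 1 h and from 1.26 to 1.41 in control. The arrays ketone_6h replicate 1 and ketone_1h replicate 3 lay farthest out on the first principal component, which held 45.0% of the variance.

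Promoter sequence was at hand for 5 of the 10 genes (Cx3cr1, Csf1r, C1qa, C1qb and Ctss), from RefSeq on build GRCr8, as 250 bases before and 50 after the gene start. A pair of these windows is shown because Cx3cr1, a homeostatic marker, and C1qa, a complement chain, had log2 changes of opposite sign below, as not every gene of their groups did. Capitals mark GGAAGT, a core of the sites bound by ETS factors such as the myeloid regulator PU.1, searched on both strands (ACTTCC is the same motif read on the opposite strand).
Cx3cr1, chr8:128677017-128677316, minus strand: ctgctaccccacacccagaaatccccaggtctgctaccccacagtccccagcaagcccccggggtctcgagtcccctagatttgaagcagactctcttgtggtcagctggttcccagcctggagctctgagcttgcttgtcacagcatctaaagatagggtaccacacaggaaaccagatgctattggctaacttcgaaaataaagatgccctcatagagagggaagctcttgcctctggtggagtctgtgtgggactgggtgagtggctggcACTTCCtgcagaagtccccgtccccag
C1qa, chr5:154419884-154420183, minus strand: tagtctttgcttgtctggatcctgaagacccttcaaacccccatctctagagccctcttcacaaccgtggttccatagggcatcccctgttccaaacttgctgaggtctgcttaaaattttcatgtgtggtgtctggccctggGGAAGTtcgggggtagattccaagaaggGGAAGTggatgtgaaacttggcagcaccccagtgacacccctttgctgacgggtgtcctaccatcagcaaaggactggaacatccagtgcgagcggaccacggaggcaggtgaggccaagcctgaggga
The motif stood at position 274 of the 300 bases in Cx3cr1, and at positions 144 and 172 in C1qa, counted from the 5′ end of the window. In C1qb it stood at position 190 (cctgaaACTTCCtgatgg) and in Ctss at position 234 (aagttcACTTCCtcgttg), and it was not among these letters in Csf1r. Thus 4 of the 5 windows held it, where 22.6% of all 33469 promoter windows of this length do. The related letters GAGGAA, which can overlap GGAAGT as they do in Ctss, were in Csf1r, C1qb and Ctss and in 27.6% of all windows. Also searched were TATAAA, in 1 of the 5 windows and 14.2% of all, and CCAAT, in 3 of the 5 and 37.5% of all. A match is a description of the letters, not a bound site.

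Values below are log2(signal + 16) after quantile normalization, given in the order of replicates 1, 2 and 3. No member passed an adjusted p of 0.05 in any comparison by limma. At 6 h against control 0 of 11 probe sets passed, beside 5 of 18625 (0.0268%) over the whole table. At 1 h against control 0 of 11 passed, beside 6 of 18625 (0.0322%). At 6 h against 1 h 0 of 11 passed, beside 0 (0%) over the table, and in the F test for any difference among the groups 0 of 11, beside 4 (0.0215%).

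**Figure D1:**
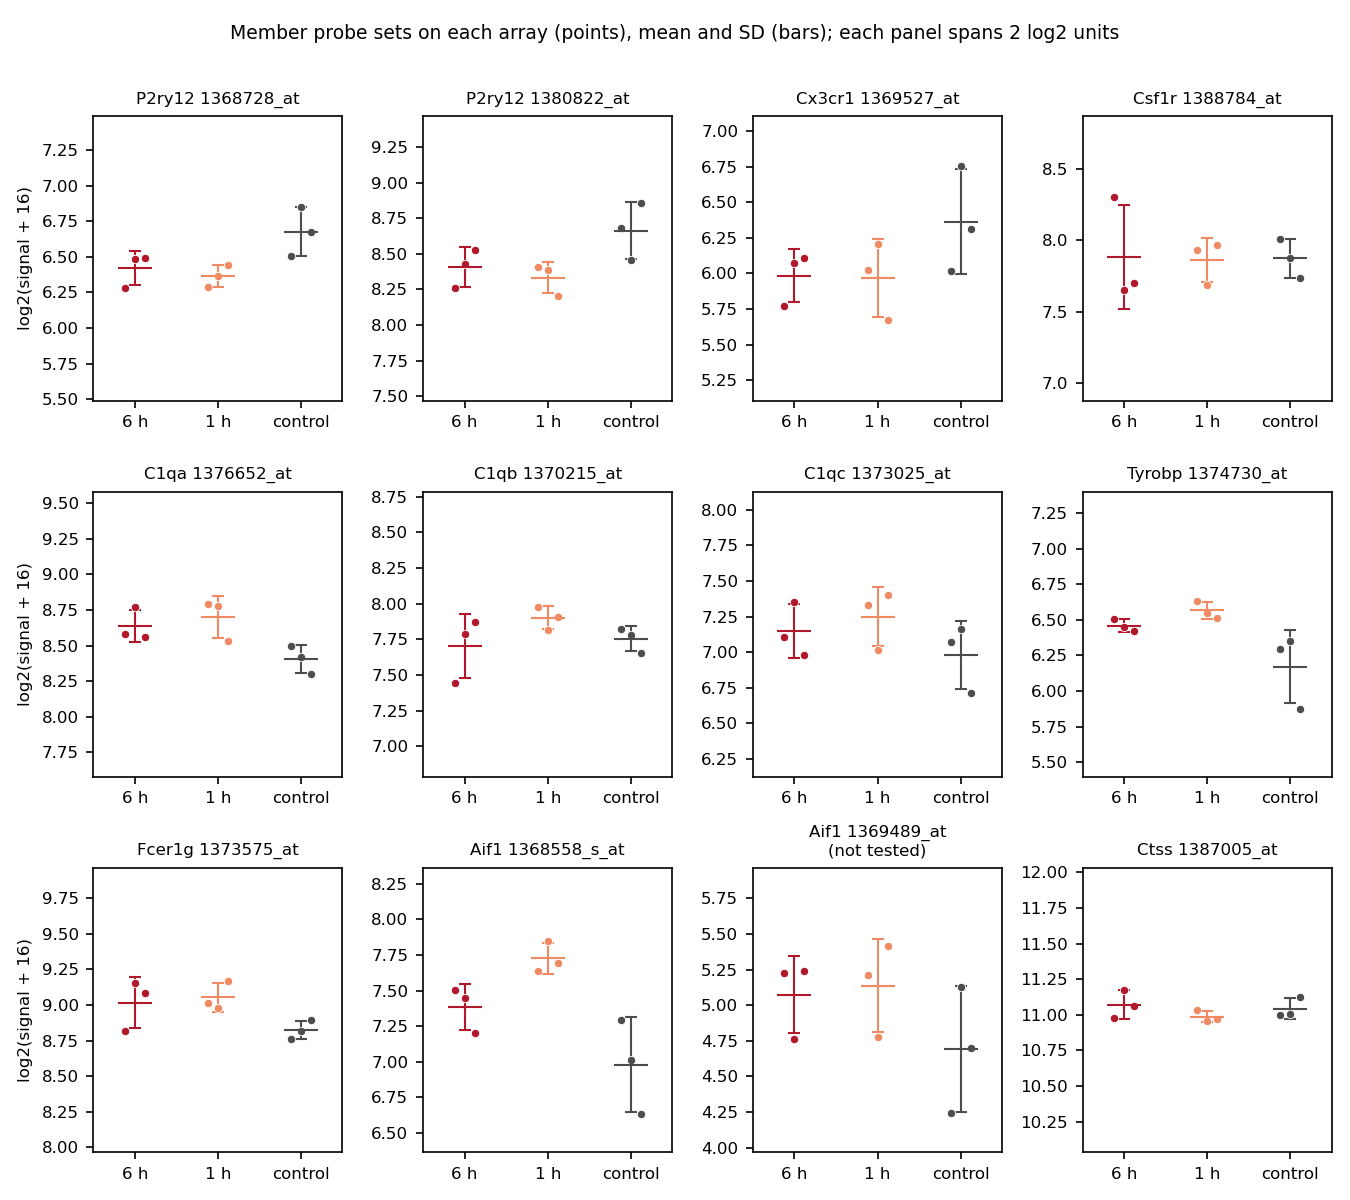
Normalized log2(signal + 16) of the 12 member probe sets, with 1 point per array, a horizontal bar for the mean and whiskers for the SD of 3 arrays; groups run 6 h, 1 h and control, and every panel spans the same number of log2 units. The P2ry12 points of both ketone groups sit low against control, the Aif1 points of 1368558_s_at at 1 h (7.64 to 7.85) lie above all control points (6.63 to 7.30), and Ctss and Csf1r show no separation.

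P2ry12, the receptor by which microglial processes find ADP released at an injury, was measured by 2 probe sets. Probe set 1380822_at had 8.26, 8.43 and 8.53 at 6 h, 8.41, 8.38 and 8.21 at 1 h, and 8.68, 8.46 and 8.85 in control. All 3 arrays at 1 h lay below all 3 controls, while at 6 h the highest array lay inside the control range. Against control this gave a log2 change of -0.26 ± 0.13 (error: SE of the fit, with 3 arrays in every group, here and below) at 6 h (adjusted p = 0.987 by limma) and -0.33 ± 0.13 at 1 h (adjusted p = 0.397). Probe set 1368728_at had 6.28, 6.48 and 6.49 at 6 h, 6.29, 6.37 and 6.44 at 1 h, and 6.50, 6.85 and 6.68 in control. Here every ketone array lay below every control array, by a narrow margin at 6 h (6.49 against 6.50), which was gone in the deposited signals (77.9 at 6 h against 76.7 in control). Its log2 change was -0.26 ± 0.13 at 6 h (adjusted p = 0.987 by limma) and -0.31 ± 0.13 at 1 h (adjusted p = 0.424). The probe sets differed in brightness but gave the same sign in both comparisons, and neither passed. At 6 h the brighter had -0.16 without control replicate 3 and the dimmer -0.17 without control replicate 2.

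Cx3cr1, through which microglia receive the neuronal chemokine fractalkine, had 5.77, 6.08 and 6.11 at 6 h, 6.03, 6.21 and 5.67 at 1 h, and 6.02, 6.75 and 6.31 in control. Control replicate 1 lay inside the range of the ketone arrays, so the groups overlapped. The log2 change was -0.38 ± 0.21 at 6 h (95% interval -0.85 to 0.09, adjusted p = 0.987 by limma) and -0.39 ± 0.21 at 1 h (interval -0.86 to 0.08, adjusted p = 0.492). The size rested on the single controls: at 6 h it was -0.18 without control replicate 2 and -0.55 without control replicate 1, and at 1 h -0.20 and -0.56. Its signals were low, between 33.2 and 95.8, against a filter level of about 21.0.

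Csf1r, the receptor that microglia need to survive, had 8.30, 7.65 and 7.70 at 6 h, 7.93, 7.69 and 7.97 at 1 h, and 8.01, 7.88 and 7.73 in control. The 6 h group held both the highest and the lowest array of all 9. Its log2 change was 0.01 ± 0.18 at 6 h (interval -0.38 to 0.40, adjusted p = 0.997 by limma) and -0.01 ± 0.18 at 1 h (interval -0.41 to 0.38, adjusted p = 0.982). Without ketone_6h replicate 1 the 6 h value was -0.20, and centring arrays on their medians turned the 1 h value to 0.07. That centring also moved the median of all genes at 1 h from 0.07 to 0.15. Of the homeostatic markers, P2ry12 and Cx3cr1 thus had negative log2 changes at both times and Csf1r had values next to 0 with wide intervals; the difference between these genes was not tested.

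Among the complement chains, C1qa had 8.58, 8.77 and 8.56 at 6 h, 8.79, 8.78 and 8.53 at 1 h, and 8.49, 8.42 and 8.30 in control. All 6 ketone arrays lay above all 3 controls. The log2 change was 0.23 ± 0.11 at 6 h (interval -0.02 to 0.48, adjusted p = 0.987 by limma) and 0.30 ± 0.11 at 1 h (interval 0.05 to 0.55, adjusted p = 0.393). C1qc had 7.11, 7.35 and 6.98 at 6 h, 7.33, 7.02 and 7.40 at 1 h, and 7.07, 7.16 and 6.71 in control, so its groups overlapped. Its log2 change was 0.17 ± 0.17 at 6 h and 0.27 ± 0.17 at 1 h (adjusted p = 0.987 and 0.542 by limma). Without control replicate 3 the C1qc values were 0.03 and 0.13, and without ketone_6h replicate 2 the 6 h value was 0.06, while without control replicate 2 it was 0.26. C1qb had 7.45, 7.79 and 7.88 at 6 h, 7.98, 7.82 and 7.91 at 1 h, and 7.82, 7.78 and 7.66 in control. Its log2 change was -0.05 ± 0.13 at 6 h and 0.15 ± 0.13 at 1 h (adjusted p = 0.991 and 0.658 by limma). The sign of the C1qb value at 6 h came from ketone_6h replicate 1, the lowest array: without it the value was 0.08. Median centring gave 0.0016, and moved the median of all genes at 6 h from 0.04 to 0.10. Without ketone_6h replicate 3 the C1qb value was -0.14. The 3 chains, which are encoded by neighbouring genes and are needed together in 1 protein, gave positive values at 1 h and no called difference.

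Tyrobp (DAP12), the adaptor of receptors such as Trem2, had 6.51, 6.45 and 6.42 at 6 h, 6.63, 6.55 and 6.52 at 1 h, and 6.29, 6.35 and 5.88 in control. The 3 groups did not overlap, with 1 h highest and control lowest, but the margin between 6 h and 1 h was narrow and was absent in the deposited signals (73.1 at 6 h against 71.3 at 1 h for the nearest arrays). The log2 change was 0.29 ± 0.14 at 6 h (adjusted p = 0.987 by limma) and 0.39 ± 0.14 at 1 h (adjusted p = 0.391). Control replicate 3 was far below the other controls, and without it the values were 0.14 at 6 h and 0.25 at 1 h. Tyrobp signals were low, between 46.7 and 82.4. Fcer1g, the common chain of Fc receptors, had 8.82, 9.15 and 9.08 at 6 h, 9.01, 8.98 and 9.17 at 1 h, and 8.76, 8.82 and 8.89 in control. All 1 h arrays lay above the controls, whereas ketone_6h replicate 1 lay within them. Against control Fcer1g had a log2 change of 0.19 ± 0.11 at 6 h and 0.23 ± 0.11 at 1 h (adjusted p = 0.987 and 0.46 by limma). The 6 h value was 0.29 without ketone_6h replicate 1 and 0.12 without ketone_6h replicate 2.

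Aif1 had the largest log2 change among the members at 1 h against control, apart from sign, in every alternative run. At 6 h it was the largest as fitted, but Cx3cr1 was larger with values as deposited (-0.45 for Cx3cr1), with a pseudocount of 1 (-0.47) and without control replicate 3 (-0.40) or ketone_6h replicate 2, as was Fcer1g with array weights. Probe set 1368558_s_at had 7.50, 7.45 and 7.20 at 6 h, 7.64, 7.85 and 7.69 at 1 h, and 7.30, 7.01 and 6.63 in control. Every 1 h array lay above every control and above every 6 h array, while ketone_6h replicate 3 lay below control replicate 1. In deposited signal the arrays had 164, 156 and 134 at 6 h, 183, 214 and 187 at 1 h, and 144, 118 and 87.4 in control. Aif1 thus had a log2 change of 0.40 ± 0.17 at 6 h (interval 0.03 to 0.78, adjusted p = 0.987 by limma) and 0.75 ± 0.17 at 1 h (interval 0.37 to 1.12, a fold of 1.68, adjusted p = 0.299). At 6 h against 1 h it was -0.34 ± 0.17 (interval -0.72 to 0.03, adjusted p = 0.996 by limma). The 1 h value stayed between 0.57 and 0.91 under the alternative settings, and its lowest adjusted p was 0.125, with array weights. At 6 h the value was 0.23 without control replicate 3. The suffix _s_at marks a probe set that can match more than 1 transcript. The other Aif1 probe set, 1369489_at, did not pass the filter and was not tested: its signals were 18.0, 12.1 and 23.4 at 6 h, 20.2, 10.6 and 26.0 at 1 h, and 2.84, 21.0 and 10.9 in control, which overlap.

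Ctss, which cuts proteins in the lysosome and releases soluble fractalkine, had 10.97, 11.18 and 11.06 at 6 h, 11.03, 10.96 and 10.97 at 1 h, and 11.00, 11.00 and 11.13 in control. Its groups overlapped, and it had the narrowest intervals of the members. The log2 change was 0.03 ± 0.07 at 6 h (interval -0.13 to 0.19, adjusted p = 0.991 by limma) and -0.06 ± 0.07 at 1 h (interval -0.21 to 0.10, adjusted p = 0.77). The sign at 1 h depended on the scaling, with 0.07 in the values as deposited and 0.17 with arrays centred on their medians. The median of all genes at 1 h was 0.07 as fitted, 0.04 as deposited and 0.15 with that centring.

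**Figure D2:**
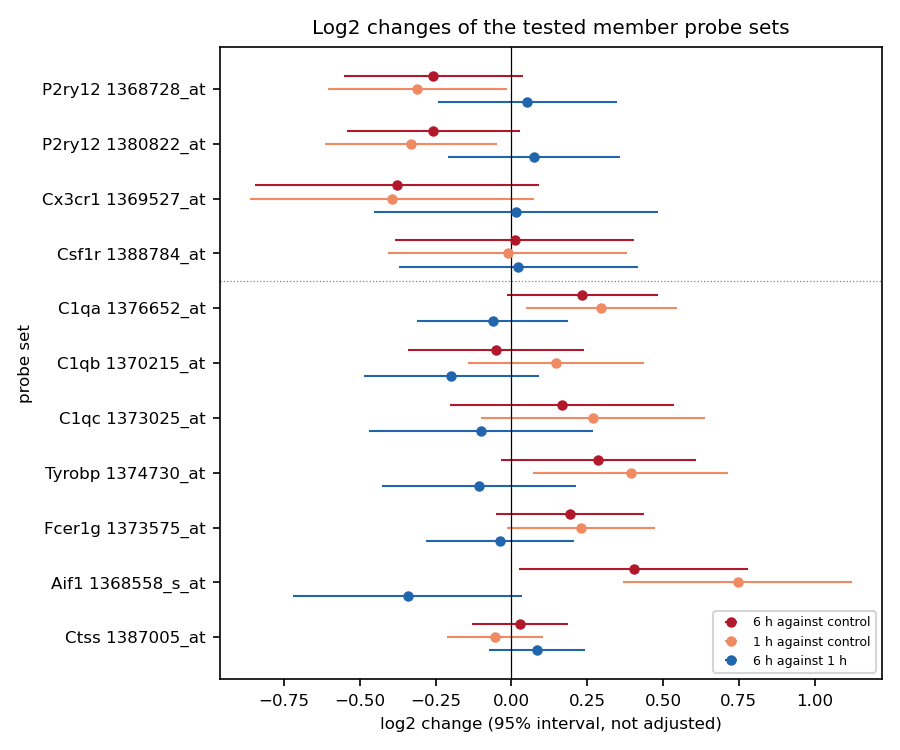
Log2 change of each tested member probe set with its unadjusted 95% interval for 6 h against control, 1 h against control and 6 h against 1 h; the dotted line parts the homeostatic markers above from the other members below. Only Aif1 lies clear of 0 at both times against control, with 0.40 at 6 h and 0.75 at 1 h, and no adjusted p passed.

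Counted without adjustment for the number of tests, 1 of 11 member probe sets had p under 0.05 at 6 h against control (Aif1), beside 4.25% of all probe sets tested. At 1 h against control there were 5 of 11 (both P2ry12 probe sets with negative values, and C1qa, Tyrobp and Aif1 with positive ones), beside 11.4% of all. At 6 h against 1 h there were 0 of 11, beside 2.72%. The count of 5 fell to 1 without control replicate 3, 2 without ketone_1h replicate 1 and 3 without ketone_1h replicate 2. The 6 h count of 1 became 0 without control replicate 3, ketone_1h replicate 1 or 3, or ketone_6h replicate 2, with 3 without control replicate 1 and 2 without control replicate 2. Groups did not overlap at 6 h against control in 3 of 11 (1 P2ry12 probe set lower, C1qa and Tyrobp higher), beside 9.2% of all probe sets. At 1 h against control they did not overlap in 6 of 11 (both P2ry12 lower; C1qa, Tyrobp, Fcer1g and Aif1 higher), beside 21.3%. At 6 h against 1 h they did not overlap in 2 of 11 (Tyrobp and Aif1, both lower at 6 h), beside 7.59%. The comparisons with control share the same 3 control arrays, and the list was drawn up with earlier results of these data known, so these counts describe the members and test nothing.

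The homeostatic markers and the other members were set side by side as each array's mean distance from the control mean. For P2ry12, Cx3cr1 and Csf1r the distance was -0.19, -0.25 and -0.19 at 6 h, -0.18, -0.21 and -0.35 at 1 h, and -0.06, 0.06 and 0.0012 in control. All 6 ketone arrays lay below the controls, a separation of the mean that P2ry12 and Cx3cr1 carried, since Csf1r was next to 0. For the other 7 genes it was 0.11, 0.28 and 0.15 at 6 h, 0.32, 0.25 and 0.29 at 1 h, and 0.08, 0.06 and -0.14 in control. All 6 ketone arrays thus lay above, by a narrow margin at 6 h (0.11 against 0.08). Among single probe sets, groups did not overlap in 9.2% at 6 h and 21.3% at 1 h against control. No such share was computed for means of several genes. By gene, the median log2 change of the homeostatic markers was -0.26 at 6 h and -0.33 at 1 h, that of the other 7 was 0.19 and 0.27, and that of all 10707 genes tested was 0.04 and 0.07. With only 3 homeostatic genes, their median is the value of a single gene, here P2ry12 at both times. Csf1r had 0.01 and -0.01, so the median does not stand for every marker. At 6 h against 1 h the medians were 0.02 for the homeostatic markers (the Csf1r value), -0.10 for the others and -0.03 for all genes.

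**Figure D3:**
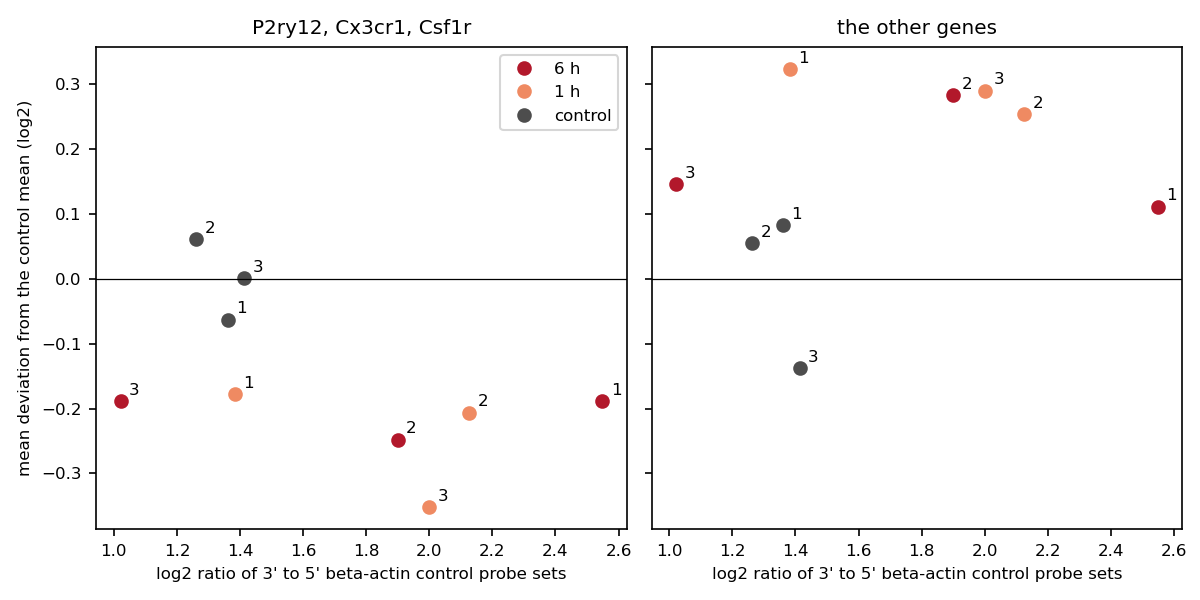
Mean distance of each array from the control mean (log2) for P2ry12, Cx3cr1 and Csf1r at left and for the other 7 genes at right, against the beta-actin 3'/5' control ratio (log2); colours mark the groups and digits the replicates. The homeostatic distances of the ketone arrays run from -0.35 to -0.18 and their 3'/5' ratios from 1.02 to 2.55. The mean pools genes whose correlations with the ratio differ in sign: -0.63 for P2ry12, -0.53 for Cx3cr1 and 0.43 for Csf1r.

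The beta-actin ratio averaged 1.82 ± 0.77 (SD) at 6 h, 1.84 ± 0.40 at 1 h and 1.34 ± 0.08 in control, although the lowest of all 9 arrays was ketone_6h replicate 3 (1.02). The Gapdh 3'/5' ratio did not follow the groups in the same way, with 0.19 ± 0.23 at 6 h, 0.11 ± 0.04 at 1 h and 0.13 ± 0.11 in control (log2, SD). Over the 9 arrays, which share these groups, the Pearson correlation of the beta-actin ratio with the homeostatic markers was -0.63 for P2ry12, -0.53 for Cx3cr1 and 0.43 for Csf1r. With the other members it ran from -0.54 for C1qb and -0.32 for Ctss to 0.57 for Aif1, with 0.06 to 0.36 for C1qa, C1qc, Tyrobp and Fcer1g. Of 5 red cell markers 3 were on the array, of which Ahsp was under the filter, and their summed signal was 3744 to 4991 at 6 h, 4079 to 5151 at 1 h and 2793 to 3602 in control. Their Hbb probe set had a log2 change of 0.32 ± 0.12 at 6 h and 0.39 ± 0.12 at 1 h, and neither passed. With the beta-actin ratio as a covariate, a setting chosen after seeing the data, the brighter P2ry12 probe set had -0.19 at 6 h and -0.26 at 1 h, Cx3cr1 -0.29 and -0.30, Tyrobp 0.29 and 0.40, and Aif1 0.31 and 0.65, with no call. In that setting C1qb had 0.07 and 0.27 and Csf1r -0.10 and -0.13. The part of RNA quality beyond this setting, and of blood, in the members' values was not tested.

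The summed signals of markers of other immune cells were low. Of 6 markers of border and perivascular macrophages, Cd163, Ms4a7 and F13a1 lay under the filter. The others, Mrc1, Lyve1 and Pf4, passed it, with a median log2 change of 0.09 at 6 h and 0.01 at 1 h. The summed signal of the 6 was 193 to 213 at 6 h, 187 to 226 at 1 h and 195 to 212 in control. Of 5 monocyte and neutrophil markers on the array, S100a8, S100a9, Ccr2 and Ly6c lay under the filter. Their list had sums of 52 to 73 at 6 h, 67 to 95 at 1 h and 57 to 81 in control. Of 7 T and B cell markers on the array 6 lay under the filter. The summed signal of the microglial markers was 4209 to 4737 at 6 h, 4403 to 4582 at 1 h and 4107 to 4246 in control, a sum that the bright Ctss probe set dominates.

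Over the 9 arrays some members varied together. The highest Pearson correlations among the 10 genes were between Tyrobp and Aif1 (0.90), C1qa and Aif1 (0.82) and C1qa and Tyrobp (0.81). The lowest were between P2ry12 and Tyrobp (-0.86), P2ry12 and Aif1 (-0.79) and P2ry12 and C1qc (-0.75). These values carry the group differences and whatever else the arrays share, and are given as a description. The probe sets outside the list that were most like the mean of the 10 scaled members were those of Raly (r = 0.95), Txnl4a (0.94), Ubfd1 (0.94), Aimp2 (0.94) and Nat8f3 (0.94), over 9 arrays. They are the highest of 14439 candidates, so large correlations follow from the choice. The mean also pools members that ran against each other, such as P2ry12 and Tyrobp. Raly, an RNA-binding protein gene, had a log2 change of 0.39 ± 0.16 at 6 h and 0.54 ± 0.16 at 1 h, and did not pass (adjusted p = 0.987 and 0.347 by limma).

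The ligands and partners of the members were read next. Cx3cl1, the neuronal ligand of Cx3cr1, had log2 values of 10.89, 10.19 and 10.33 at 6 h, 10.57, 10.28 and 10.52 at 1 h, and 10.65, 10.53 and 10.34 in control, with changes of -0.04 ± 0.17 and -0.05 ± 0.17 against control. Of the Csf1r ligands, Il34 had changes of 0.05 ± 0.17 at 6 h and 0.23 ± 0.17 at 1 h. The brightest of 4 Csf1 probe sets, 1380582_at, had -0.03 ± 0.13 and -0.07 ± 0.13. The other 3 ran from -0.17 to 0.07 at 6 h and from -0.31 to 0.41 at 1 h. The 0.41 came from 1369354_at, with mean log2 values of 5.14 at 6 h, 5.57 at 1 h and 5.16 in control. Only its 1 h mean lay above the filter level of 5.21. The -0.31 came from 1379631_at, whose 1 h mean of 5.09 lay below that level. Trem2, which signals through Tyrobp, had 0.11 ± 0.18 at 6 h and 0.37 ± 0.18 at 1 h in its tested probe set, 1392759_at. Its signals of 14.8 to 28.5 lay about the filter level. Its mean log2 was 5.20 at 6 h, 5.47 at 1 h and 5.10 in control, with only 1 h above 5.21. The other Trem2 probe set, 1382513_at, was not tested and had means of 5.29, 5.01 and 4.85 in the same order. No tested probe set of these genes passed.

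The wider lists held no called gene either. Of 42 other microglia genes, 35 were on the array and 28 were tested, with 0 that rose and 0 that fell in each comparison. Their median log2 change was 0.06 at 6 h and 0.14 at 1 h, with 20 and 17 of 28 positive. Tmem119, like P2ry12 a marker of resting microglia, had deposited signals of 126, 110.5 and 113.2 at 6 h, 144, 136 and 138 at 1 h, and 106, 113.2 and 96.6 in control. All 1 h arrays lay above the controls, the opposite side from P2ry12, while at 6 h the groups overlapped on this scale and did not after normalization. Tmem119 was named for its small F-test p, a choice that favours separated groups. Over all probe sets, groups did not overlap in 9.2% at 6 h and 21.3% at 1 h. Tmem119 had log2 changes of 0.18 ± 0.11 at 6 h and 0.43 ± 0.11 at 1 h (adjusted p = 0.987 and 0.317 by limma). Cyba, a subunit of the phagocyte oxidase, had -0.06 ± 0.15 and 0.35 ± 0.15. The pattern receptor Tlr2 had 0.38 ± 0.14 and 0.28 ± 0.14.

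Of 36 complement genes beyond C1q, 27 were on the array and 13 were tested, with 0 called and medians of 0.06 at 6 h and 0.06 at 1 h. The lectin pathway protease Masp1 had 0.12 ± 0.09 and 0.22 ± 0.09, and the anaphylatoxin receptor C5ar1 0.28 ± 0.17 and 0.08 ± 0.17. C8g, a component of the membrane attack complex, had -0.16 ± 0.17 and 0.25 ± 0.17. Signals were low for C5ar1 (16.1 to 33.7) and C8g (25.7 to 45.4), against a filter level of about 21.0. The C5ar1 mean in control (5.17) lay under the filter level of log2 5.21, with 5.45 at 6 h and 5.25 at 1 h above it. Of 14 cathepsins and cystatins, 13 were tested with 0 called, and medians of 0.07 and 0.14. The protease inhibitor Cstb had 0.15 ± 0.08 and 0.25 ± 0.08, Ctsh 0.13 ± 0.09 and 0.22 ± 0.09, and Ctsl 0.24 ± 0.11 and 0.16 ± 0.11 in its dimmer probe set 1370245_at. The brighter Ctsl probe set had 0.05 ± 0.09 and 0.13 ± 0.09. In that list 12 of 13 log2 changes were positive at 6 h and 13 of 13 at 1 h, where 6564 and 6801 of all 10707 genes were positive.

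Phagocyte activation and antigen presentation genes gave 13 tested of 28, with 0 called. The median was 0.12 at 6 h and 0.08 at 1 h. B2m, the light chain of class I molecules, had 9.67, 9.71 and 9.30 at 6 h, 9.56, 9.62 and 9.76 at 1 h, and 9.20, 9.09 and 9.18 in control in probe set 1371440_at. All ketone arrays lay above the controls, with changes of 0.41 ± 0.12 and 0.49 ± 0.12 (adjusted p = 0.904 and 0.299 by limma). That probe set is the dimmer of the B2m pair. The brighter, 1367595_s_at, which the list median uses, had only 0.10 and 0.04, so the B2m probe sets disagree in size. The class II chain RT1-Da had 0.34 ± 0.14 and 0.49 ± 0.14, and the lysosomal tetraspanin Cd63 0.32 ± 0.12 and 0.41 ± 0.12. For each of these 2 genes all ketone arrays also lay above the controls. B2m, RT1-Da and Cd63 were named for the smallest F-test p of their list, a choice that favours separated groups. Over all probe sets, groups did not overlap in 9.2% at 6 h and 21.3% at 1 h against control.

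**Figure D4:**
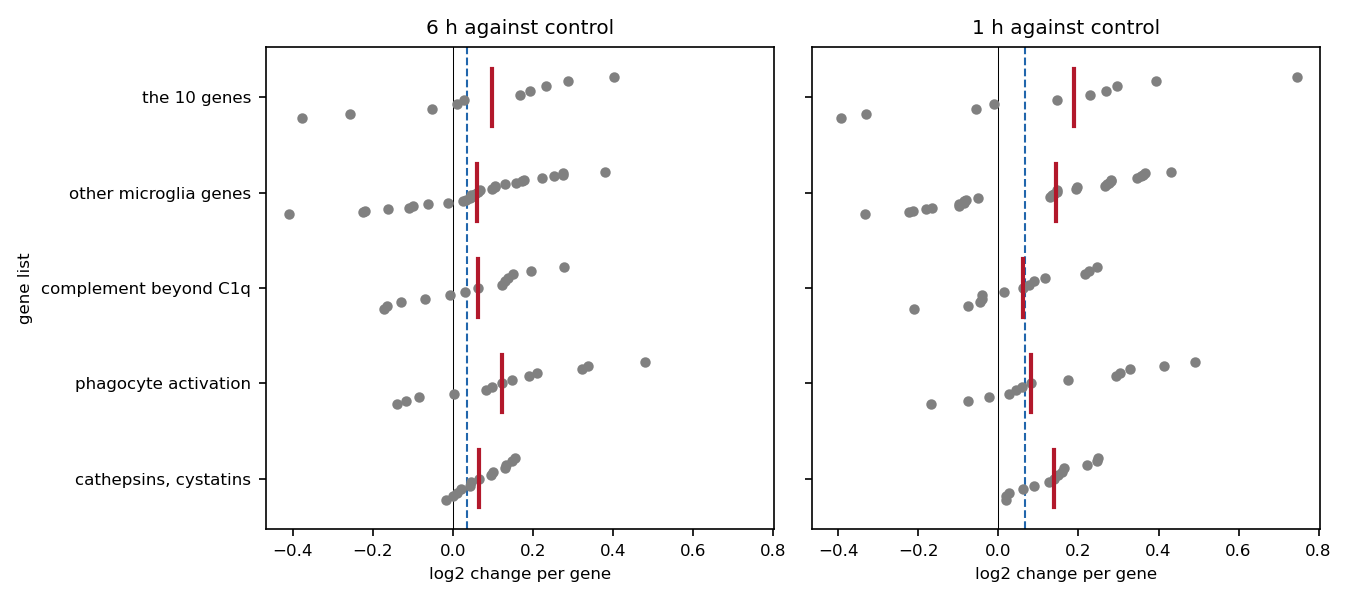
Log2 change per gene (grey points, probe set with the highest mean) for the 10 genes and 4 wider lists at 6 h against control and at 1 h against control; red bars mark list medians and the dashed blue line the median of all 10707 genes. The 10 genes spread from -0.38 to 0.40 at 6 h and from -0.39 to 0.75 at 1 h, on both sides of the line.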

How the data were processed

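The authors deposited a table of linear intensities, with 31099 probe sets and a column for each array. Their software, build and filters were not stated in the labels. The deposited intensities have a mean of 150.05 on every array once the lowest and highest 2% of probe sets are dropped, as global scaling gives, and there were 0 values at or below 0. No counts lie behind them, so the number of arrays limits the precision.

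Values were taken as log2(signal + 16) and quantile-normalized because array medians spanned 0.206. The 57 control probe sets and those with a mean under the 40th percentile (log2 5.21) were left out. One fit over the 18625 others was made with limma 3.58.1 in R 4.3.3, with 3 group coefficients, 6 residual degrees of freedom, an intensity trend and Benjamini-Hochberg adjustment at 0.05. The fit was tested on simulated data, as a check of the code. Apart from Aif1 at 1 h, the members' changes were smaller than any simulated, so the check does not show whether they would be called. The Aif1 change at 1 h lay within the simulated sizes, and the share of such changes called is not given here.

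Gene names came from the platform annotation, and all 12 member symbols matched RefSeq by Entrez number. The members and lists were chosen with earlier results of these data known. Named besides the members were their ligands and partners, the 5 probe sets most alike over the arrays and, per list, the called genes or else the 3 with the smallest F-test p. Lists use the brightest probe set per gene for medians and all for calls. Same-numbered arrays of different groups correlated at -0.36 to 0.54 in their deviations from the group means, so the replicate numbers were not taken as pairs.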

Additional observations from a re-analysis of the deposited data

How the results depend on the processing

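Under every alternative run, 0 member probe sets passed an adjusted p of 0.05 by limma in any comparison or in the F test. The signs of P2ry12 (both probe sets), Cx3cr1, C1qa, C1qc, Tyrobp, Fcer1g and Aif1 against control held in each alternative that tested them. Csf1r at both times, C1qb at 6 h and Ctss at both times changed sign in at least 1, without a call. Over all probe sets, the 5 calls at 6 h against control became 2 with values as deposited or no filter, and 1 with arrays centred on medians, with only the 2 groups compared or with any single array left out. The 6 calls at 1 h became 3 with no filter and 25 with array weights, and ran from 0 to 10 with 1 array left out. With the replicate number as a block the calls were 1 at 6 h and 2 at 1 h; only 4 of 9 arrays correlated best with their own number. Chosen after seeing the data, the 3'/5' ratio as a covariate left 1 call at 6 h and 0 at 1 h, and leaving out ketone_1h replicate 3 and ketone_6h replicate 1 also left 1 and 0. The cause was not tested. Cx3cr1 and Tyrobp were not tested under the 60th percentile filter. Low signals limit Cx3cr1, Tyrobp, Trem2, C5ar1, C8g, the dimmer Csf1 probe sets and the dim Aif1 probe set. At 1 h against control Tyrobp had 0.25 with a pseudocount of 64 and 0.49 with a pseudocount of 1.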
